A study of Mus musculus with 4 samples.

Results

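Wnt ligands, their receptors and the modulators of the pathway made up 52 of the 38201 genes in the deposited table and were chosen by gene symbol. The set has 19 Wnt ligands, 10 Frizzled receptors, the co-receptors Lrp5 and Lrp6, 4 R-spondins, 3 Lgr receptors, 9 secreted inhibitors (Sfrp, Dkk and Wif1), the feedback genes Axin2, Znrf3 and Rnf43, and the transcription factors Lef1 and Tcf7. RNA came from cells of E18.5 mouse kidneys that bound the lectin DBA and were sorted as ureteric epithelium. One group was null for the epithelial splicing factors Esrp1 and Esrp2 (Esrp1-/-;Esrp2-/-, DKO), and the other had both wild type copies of Esrp1 (Esrp1+/+;Esrp2-/-, control), so that Esrp2 was absent by genotype in every library. The alleles are constitutive, so cells other than ureteric epithelium carried them too, and each of the 2 libraries per group pooled RNA from 3 embryos. Expression is given as FPKM (fragments scaled by transcript length and by the mapped fragments of the library), so levels of different genes can be set side by side.

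Wnt proteins are secreted, lipid-modified ligands that bind Frizzled receptors and the co-receptors Lrp5 and Lrp6, which lets β-catenin collect in the nucleus and act with TCF/LEF factors. R-spondins and their Lgr receptors keep Frizzled proteins at the cell surface, while Sfrp, Dkk and Wif1 proteins restrain the signal outside the cell. In the developing kidney Wnt9b from the ureteric stalk induces nephron progenitors, Wnt11 is made at the ureteric tips, Wnt4 drives the progenitors to form epithelium, and Wnt7b from the ureteric trunk directs growth of the medulla.

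Esrp1 was listed at 8.65 and 7.29 FPKM in DKO cells, against 27.0 and 31.4 FPKM in control cells, which follows the labels (log2 difference -1.81, limma adjusted p = 0.143). The number of fragments per library is not known, but the steps between low FPKM values put 1 library, control replicate 1, at 0.508 times the depth of DKO replicate 1 and the remaining pair at 1.09 and 1.10 times. The 14 markers of ureteric epithelium summed to 2025 and 2097 FPKM in DKO cells and 1492 and 2107 FPKM in control cells, with 6 above both controls, 0 below and 8 overlapping. Hoxb7 was at 46.0 FPKM in each DKO library and at 41.6 and 42.8 FPKM in the controls, and the collecting duct water channel Aqp2 was at 339 and 374 FPKM in DKO cells and 165 and 393 FPKM in control cells. Markers of other cell types were also present. The 16 stroma markers on the list summed to 296 and 442 FPKM in DKO cells and 154 and 206 FPKM in control cells, with 16 of 16 above both controls and none at 0. In the other direction, 7 of 7 macrophage markers were below both controls, with sums of 381 and 359 FPKM in DKO cells and 1546 and 718 FPKM in control cells, and so were 10 of 10 proximal tubule markers (sums of 216 and 185 FPKM in DKO cells and 358 and 416 FPKM in control cells). Endothelial markers lay above both controls in 7 of 9 cases, with sums of 199 and 249 FPKM in DKO cells and 104 and 180 FPKM in control cells. Of all genes tested, 20.8% lay above both controls and 22.6% below. In bulk samples such as these a change in the number of cells of a type and a change in RNA per cell cannot be told apart.

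None of the Wnt genes passed the test between DKO and control cells. Neither did Esrp1, the gene ablated in DKO cells (limma adjusted p = 0.143). With limma on log2(FPKM + 0.5) over 18884 genes, 0 of the 43 set members tested had a Benjamini-Hochberg adjusted p under 0.05 together with a 2-fold difference of average FPKM, where 4 genes or 0.0212% of all genes did (0.0159% higher and 0.00530% lower in DKO cells). At an unadjusted p under 0.05 there were 3 of 43, against 10.7% of all genes tested. Sfrp2 and Rspo3 were higher in DKO cells, against 3.35% of all genes, and Lgr4 was lower, against 7.35%. A difference of at least 2-fold in average FPKM was seen in 5 of 43, against 16.7% of all genes, and among the 34 members that averaged 1 FPKM or more in a group it was seen in Rspo3 alone, against 6.81% of genes at about that level. The other 9 members did not reach a group average above 0.1 FPKM and were not tested.

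**Figure D1:**
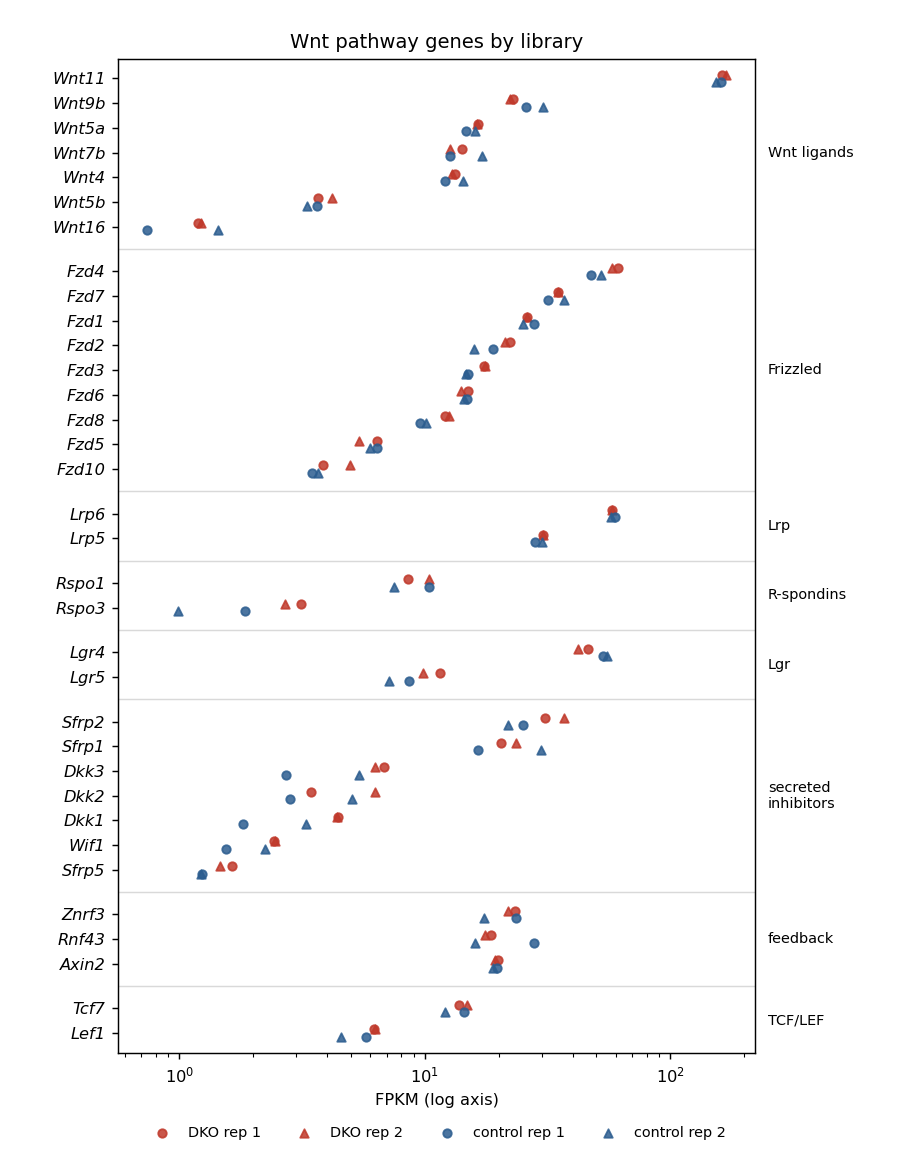
FPKM of the 34 Wnt pathway genes that averaged at least 1 FPKM in a group, 1 row per gene and 1 point per library, on a log axis (red, DKO; blue, control; circles, replicate 1; triangles, replicate 2). Wnt11 lies at 154 FPKM or more in all 4 libraries, and for most genes the DKO and control points lie close together.

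The median size of the differences was about that of all genes. Among these 34 members the median absolute difference between DKO and control averages was 0.187 on the log2 scale. Over all genes averaging 1 FPKM or more in a group it was 0.179. The DKO pair differed by a median of 0.0776 and the control pair by 0.218, against 0.126 and 0.251 over those genes. These pair values compare single libraries, so they are not on a par with a difference of averages. For 30 of the 34 (88.2%) the 95% interval lay within a 2-fold change in either direction on the fitted scale, against 76.7% of all genes at that level. The exceptions were Rspo3, Dkk1, Dkk2 and Dkk3. The fitted scale adds a constant to FPKM before the logarithm and so understates changes of low genes. For low genes an interval counted as within the limit can therefore reach past a 2-fold change of FPKM itself.

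The direction was uneven. Both DKO libraries lay above both controls for 19 of the 43 genes, against 20.8% of all genes, and below them for 5, against 22.6% of all genes. Of the 34 more abundant members 17 were above, against 21.0% of genes at that level, and Wnt9b and Lgr4 were below, against 24.5%. After rescaling to TPM the counts were 25 above and 3 below, against 32.9% and 13.8% of all genes, and with median-ratio scaling 20 and 5, against 22.1% and 21.5%.

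With 1 library left out fewer values stand in the way of a separation, and the count above the controls was larger each time. Without control replicate 1 there were 27 above and 12 below, against 37.2% and 37.8% of all genes, and without control replicate 2 there were 26 above and 9 below, against 37.4% and 44.5%. Without DKO replicate 1 the counts were 23 and 8, against 33.3% and 33.2%, and without DKO replicate 2 they were 24 and 5, against 31.4% and 31.2%. The median log2 difference over the 43 members was 0.0919, beside -0.00916 over all genes tested. The part of the higher stroma markers in this was not tested.

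**Figure D2:**
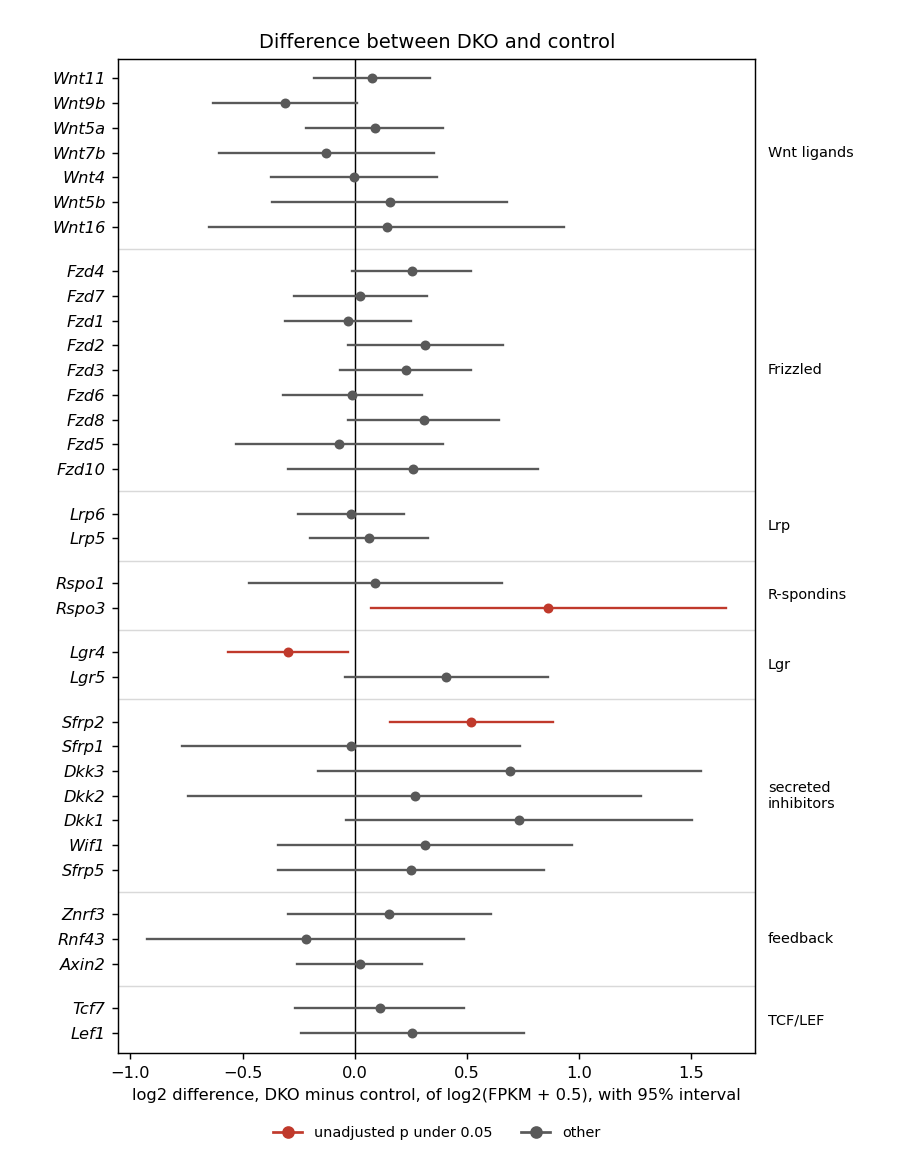
Difference between DKO and control cells for the same 34 genes, as DKO minus control on the log2(FPKM + 0.5) scale, with the 95% interval from limma. Intervals that leave out 0 are drawn in red and belong to Rspo3 (0.86), Lgr4 (-0.30) and Sfrp2 (0.52), none of which passed the adjusted test.

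Among the ligands Wnt11 (mm10 chr7:98835112-98855195), which supports branching at the ureteric tips, was by far the most abundant. It was listed at 163 and 169 FPKM in DKO cells, against 161 and 154 FPKM in control cells (log2 difference 0.08, 95% interval -0.18 to 0.34, limma adjusted p = 0.795). The libraries thus differed little. Wnt11 made up 68.9% and 70.2% of the summed FPKM of the 19 ligands in DKO cells and 69.2% and 64.4% in control cells, with sums of 237 and 241 FPKM in DKO cells and 233 and 239 FPKM in control cells. The tip markers on the list include Ret and Gfra1 of the GDNF receptor. They lay above both controls in 7 of 8 cases, against 20.8% of all genes. Their sums were 641 and 683 FPKM in DKO cells and 564 and 507 FPKM in control cells.

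Wnt9b (chr11:103727364-103749821), the inducer of nephron progenitors, was the next ligand by level. Its values were 22.9 and 22.1 FPKM in DKO cells and 25.8 and 30.4 FPKM in control cells, so the groups did not overlap. The difference was -0.31 on the log2 scale (standard error 0.124, 95% interval -0.63 to 0.01) and did not pass limma's test (unadjusted p = 0.0554, adjusted p = 0.477). It was -0.43 without control replicate 1 and -0.20 without control replicate 2. Set against Wnt11 in the same library, a ratio that does not depend on how libraries are scaled, Wnt9b stood at 0.140 and 0.131 in DKO cells and at 0.160 and 0.198 in control cells. This ratio was chosen after the values had been seen. Because Wnt9b lay below and Wnt11 above both controls, it had to lie lower in DKO cells. An exact permutation test of 2 libraries against 2 cannot give a two-sided p below 0.3333.

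Wnt5a, Wnt7b and Wnt4 formed a middle tier whose order differed between libraries. Wnt5a, a ligand that mostly acts without β-catenin, was listed at 16.5 and 16.2 FPKM in DKO cells and 14.76 and 15.95 FPKM in control cells. Wnt7b was listed at 14.2 and 12.7 FPKM in DKO cells, within the span of 12.6 and 17.1 FPKM in control cells. Wnt4 likewise overlapped, at 13.3 and 12.9 FPKM in DKO cells and 12.0 and 14.3 FPKM in control cells. For Wnt4 the interval of the log2 difference ran between -0.37 and 0.37.

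Wnt5b and Wnt16 were the least abundant of the ligands that averaged over 1 FPKM. Wnt5b, a relative of Wnt5a, stood at 3.67 and 4.19 FPKM in DKO cells and 3.63 and 3.31 FPKM in control cells. Wnt16 stood at 1.19 and 1.22 FPKM in DKO cells and at 0.740 and 1.43 FPKM in control cells, where the control pair was wider apart than the groups.

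A further 6 ligands averaged between 0.1 and 1 FPKM. Wnt6, which is known from ureteric tips, was listed at 0.448 and 0.656 FPKM in DKO cells and 0.824 and 1.08 FPKM in control cells, and Wnt10a at 0.123 and 0.315 FPKM against 0.675 and 0.357 FPKM in control cells. Both were below both controls and neither passed limma's test (adjusted p = 0.600 and 0.624). Wnt2 was at 0.181 and 0.232 FPKM in DKO cells, against a listed 0 and 0.0658 FPKM in control cells. Wnt2b, Wnt8b and Wnt9a overlapped between the groups at 0.129 to 0.650 FPKM. Wnt1 and Wnt3a were listed at 0 in all libraries, and Wnt3, Wnt7a, Wnt8a and Wnt10b reached at most 0.150 FPKM in any library. At this level a listed 0 can be a matter of depth.

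**Figure D3:**
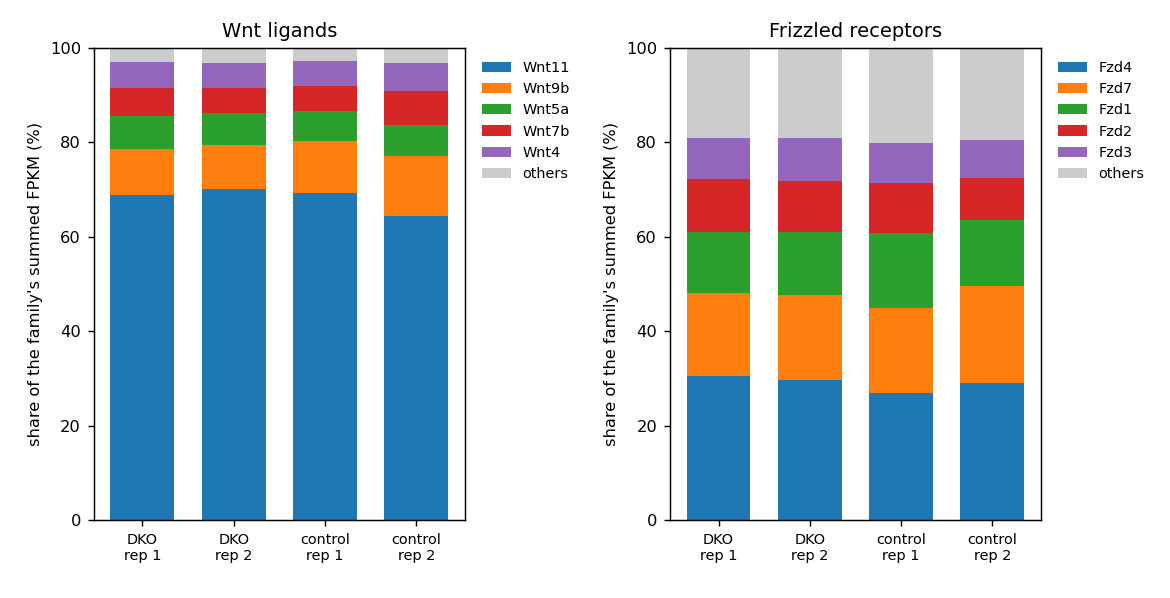
Share of each family's summed FPKM, in percent, held by its 5 most abundant genes in each library (left, the 19 Wnt ligands; right, the 10 Frizzled receptors; grey, the other members together). Wnt11 holds between 64.4% and 70.2% of the ligand sum, and Fzd4 between 26.9% and 30.6% of the Frizzled sum.

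Promoter sequences were looked at because TCF/LEF factors, which carry the β-catenin signal, bind a short core. In the RefSeq promoters of GRCm38.p6 (250 bases before to 50 after a gene's start) 34 of the 52 members had an entry, and 3 of these held CTTTGAA or CTTTGAT on either strand, which is 8.82%, against 9.88% of all 27025 genes with an entry. The matching windows, printed in the gene's direction with the matched letters in capitals, belong to Dkk1 at chr19:30549597-30549623, Wnt11 at chr7:98835051-98835077 and Wnt5b at chr6:119449441-119449467. They lie on the minus strand for Dkk1 and Wnt5b and on the plus strand for Wnt11, where the letters show the core read from the opposite strand. Each promoter held 1 match, so no matches overlapped.
Dkk1: cctcccaaagCTTTGAAatcccatccc
Wnt11: acgtgggcggATCAAAGcgacggtccg
Wnt5b: gtaagtctctCTTTGATctgctccctg
Relative to the start given by RefSeq, which for Dkk1 and Wnt5b lies inside the interval of the deposited table, the first matched letter is at -117 for Dkk1, at -51 for Wnt11 and at -71 for Wnt5b. Such a match describes the letters only, and no binding was measured.

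Frizzled receptors were widely expressed, and 9 of the 10 averaged more than 1 FPKM. Fzd4, which also binds Norrin, was the most abundant at 61.0 and 58.1 FPKM in DKO cells and 47.5 and 52.3 FPKM in control cells. Its log2 difference was 0.25 (95% interval -0.01 to 0.52, limma adjusted p = 0.481). Fzd8, known to act with Fzd4 in ureteric growth in mice, was listed at 12.1 and 12.5 FPKM in DKO cells and 9.60 and 10.1 FPKM in control cells. Here the groups did not overlap and the log2 difference was 0.31 (95% interval -0.03 to 0.65, limma adjusted p = 0.499).

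Fzd2, Fzd3 and Fzd10 also lay above both controls. Fzd2 stood at 22.2 and 21.1 FPKM in DKO cells and 18.9 and 15.9 FPKM in control cells. Fzd3, a receptor of planar cell polarity, was close within each pair, at 17.4 and 17.6 FPKM in DKO cells and 15.0 and 14.7 FPKM in control cells. Fzd10 was lower throughout, at 3.85 and 4.95 FPKM in DKO cells and 3.48 and 3.66 FPKM in control cells. None of these passed limma's test, with adjusted p between 0.481 and 0.692 over the 5 Frizzled genes that lay above both controls.

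The other Frizzled genes overlapped, apart from Fzd9, which was low and lay below both controls (log2 difference -0.51, limma adjusted p = 0.617). Fzd7 was listed at 34.7 and 35.0 FPKM in DKO cells and 31.8 and 36.8 FPKM in control cells. Fzd1 was at 26.0 FPKM in both DKO libraries, between the control values of 27.9 and 25.2 FPKM. Fzd6, which also serves planar cell polarity, was at 15.0 and 14.1 FPKM in DKO cells and 14.9 and 14.4 FPKM in control cells. These receptors hardly differed between the groups. Fzd5 was at 6.40 and 5.41 FPKM in DKO cells and 6.39 and 6.01 FPKM in control cells, and Fzd9, the least abundant, at 0.692 and 0.341 FPKM in DKO cells and 1.10 and 0.774 FPKM in control cells. The summed Frizzled FPKM was 199 and 195 in DKO cells and 177 and 180 in control cells.

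The co-receptors were at similar levels in all libraries. Lrp6 was listed at 58.0 and 57.9 FPKM in DKO cells and 59.7 and 57.5 FPKM in control cells, and its log2 difference of -0.0165 had a 95% interval of -0.25 to 0.22. Lrp5 was at 30.4 and 30.3 FPKM in DKO cells and 28.0 and 30.0 FPKM in control cells (95% interval -0.20 to 0.32). Any change of either co-receptor was therefore well within 2-fold on this scale.

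R-spondin 3, which protects Frizzled receptors by drawing off the ligases Znrf3 and Rnf43, had the largest positive difference in the set. Rspo3 (chr10:29453109-29535867) was listed at 3.12 and 2.70 FPKM in DKO cells, against 1.85 and 0.991 FPKM in control cells, so every DKO value was above every control value. The ratio of averages was 2.05, and the log2 difference was 0.86 (standard error 0.307, 95% interval 0.07 to 1.66, unadjusted p = 0.0381, limma adjusted p = 0.437). The difference was 1.19 without control replicate 1 and 0.54 without control replicate 2, with unadjusted p of 0.0152 and 0.0827. Rspo1, the more abundant R-spondin, overlapped at 8.55 and 10.4 FPKM in DKO cells and 10.4 and 7.47 FPKM in control cells. Rspo2 and Rspo4 were listed at 0 in both controls and at no more than 0.0712 FPKM in DKO cells.

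In mice R-spondins of the kidney come from progenitors and stroma. Stroma markers lay above both controls here, as given above. The nephron progenitor markers did so in 4 of 8 cases, against 20.8% of all genes. The progenitor sums were 119 and 133 FPKM in DKO cells and 134 and 88.8 FPKM in control cells. The part of stroma and progenitors in the Rspo3 values was not tested.

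Of the R-spondin receptors, Lgr4 lay below both controls and Lgr5 above them. Lgr4 (chr2:109917647-110014257), which is needed for a kidney of normal size in mice, was listed at 46.4 and 41.9 FPKM in DKO cells, against 53.3 and 55.4 FPKM in control cells. Its log2 difference was -0.30 (standard error 0.103, 95% interval -0.56 to -0.03, unadjusted p = 0.0349, limma adjusted p = 0.431). Rescaled to TPM the difference was -0.17 with an unadjusted p of 0.2685, so the size of this difference depended on scaling.

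Lgr5 (chr10:115450311-115587780), a Wnt target that marks nephron precursors, was listed at 11.5 and 9.80 FPKM in DKO cells and 8.66 and 7.15 FPKM in control cells (log2 difference 0.41, 95% interval -0.04 to 0.86, limma adjusted p = 0.503). The ratio of Lgr4 to Lgr5 within a library, which no scaling can alter, was 4.04 and 4.28 in DKO cells and 6.16 and 7.75 in control cells. This ratio was chosen after its members had been seen, and it is given as a description. Because Lgr4 lay below and Lgr5 above both controls, it had to lie lower in DKO cells. Of the other ratios taken, Wnt7b to Wnt11 and Sfrp2 to Sfrp1 overlapped. Those of Dkk1 to Axin2 and Rspo3 to Rspo1 lay above both controls. Dkk1 and Rspo3 already did so by themselves, so these ratios are descriptions too and add no further support. Lgr6 was near the lower limit, at 0.191 and 0.117 FPKM in DKO cells and at a listed 0 and 0.0774 FPKM in control cells.

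**Figure D4:**
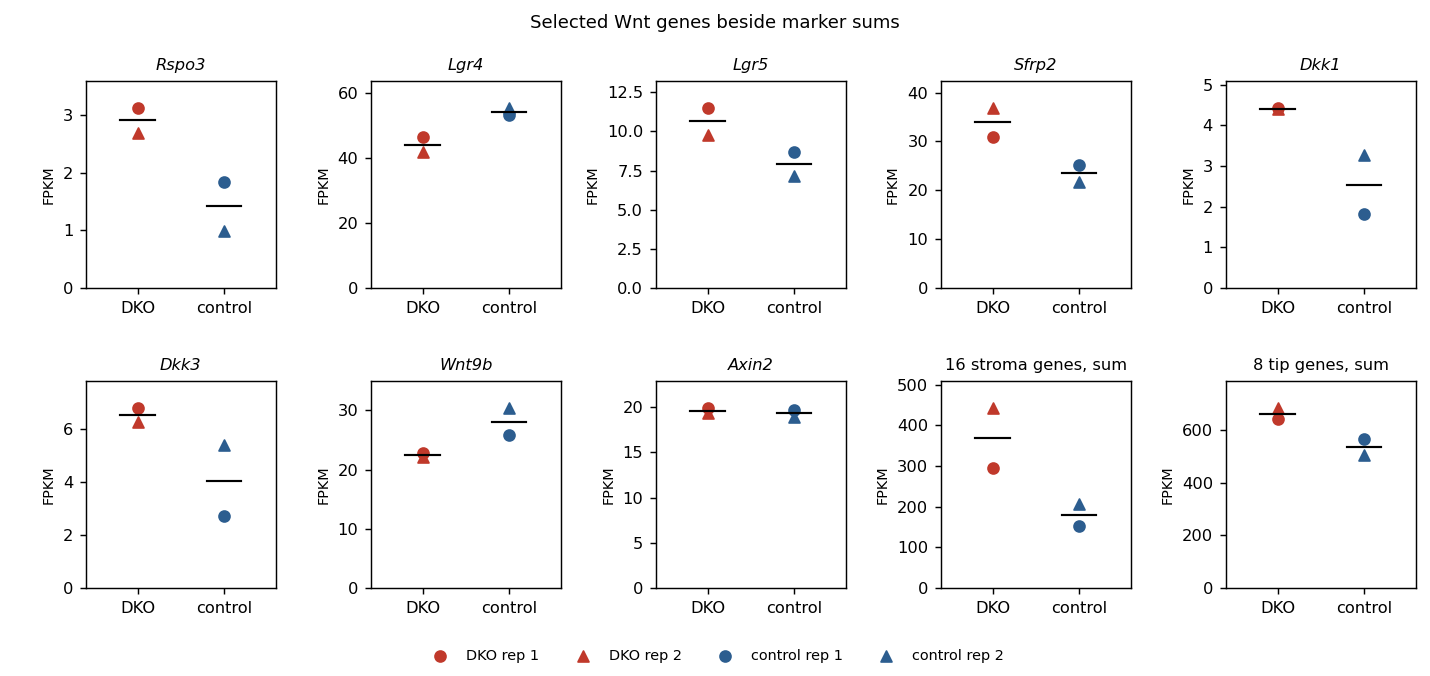
FPKM of Rspo3, Lgr4, Lgr5, Sfrp2, Dkk1, Dkk3, Wnt9b and Axin2, and the summed FPKM of 16 stroma and 8 ureteric tip marker genes, in each library (DKO left, control right; each axis starts at 0, and the black bar is the mean of 2 libraries). Lgr4 and Wnt9b lie lower in DKO cells, Axin2 lies between 18.9 and 19.9 FPKM in all libraries, and the stroma sum is at 296 FPKM or more in DKO cells and at 206 FPKM or less in control cells.

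Of the secreted inhibitors, Sfrp2 gave the smallest p of the set. Sfrp proteins bind Wnt ligands outside the cell, and Sfrp2 (chr3:83766321-83789956) was listed at 31.0 and 36.8 FPKM in DKO cells, against 25.2 and 21.8 FPKM in control cells. Both DKO values were above both controls, with a log2 difference of 0.52 (standard error 0.141, 95% interval 0.16 to 0.88, unadjusted p = 0.0146, limma adjusted p = 0.384). Sfrp1 had nearly the same average as Sfrp2 in control cells but no such separation. It was at 20.5 and 23.6 FPKM in DKO cells, between the control values of 16.5 and 29.9 FPKM. Sfrp5 was low, at 1.64 and 1.47 FPKM in DKO cells and 1.23 and 1.22 FPKM in control cells, and Sfrp4 did not exceed 0.228 FPKM.

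For Dkk1, Dkk2 and Dkk3 the control libraries lay far apart. Dkk1 (chr19:30545863-30549665), which blocks Lrp5 and Lrp6, was listed at 4.43 and 4.40 FPKM in DKO cells, against 1.82 and 3.27 FPKM in control cells. The log2 difference was 0.73 (95% interval -0.04 to 1.503, unadjusted p = 0.0584, limma adjusted p = 0.487), and it was 0.38 without control replicate 1 and 1.08 without control replicate 2. Dkk3, a divergent member of the family, showed the same pattern, at 6.80 and 6.28 FPKM in DKO cells and 2.72 and 5.41 FPKM in control cells. Its log2 difference of 0.69 became 0.25 without control replicate 1.

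Dkk2 overlapped between the groups, at 3.45 and 6.28 FPKM in DKO cells and 2.82 and 5.07 FPKM in control cells, and within each group replicate 1 was the lower library. Dkk4 was listed at 0 in all libraries. Wif1, which binds Wnt ligands directly, was at 2.42 and 2.45 FPKM in DKO cells and 1.54 and 2.23 FPKM in control cells (limma adjusted p = 0.688). For Sfrp1, Dkk1, Dkk2, Dkk3 and Wif1 alike control replicate 1 was the lowest of the 4 libraries, as it was for the stroma sum. Whether this follows from cell content or from depth was not tested.

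The feedback genes, which β-catenin signaling switches on, are a common measure of its activity. Axin2 (chr11:108920349-108950783), the general feedback inhibitor, was almost level, at 19.9 and 19.4 FPKM in DKO cells and 19.7 and 18.9 FPKM in control cells. Its log2 difference was 0.0217 (standard error 0.108, 95% interval -0.26 to 0.30, limma adjusted p = 0.949), so a 2-fold change in either direction lay well outside the interval.

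Znrf3 and Rnf43 encode ligases that remove Frizzled receptors from the cell surface. Znrf3 was listed at 23.3 and 21.8 FPKM in DKO cells and 23.5 and 17.3 FPKM in control cells. Rnf43 was at 18.7 and 17.6 FPKM in DKO cells, while control replicate 1 stood alone at 28.0 FPKM and control replicate 2 was at 16.02 FPKM. The Rnf43 difference was accordingly -0.61 without control replicate 2 and 0.17 without control replicate 1, and no direction can be given for it.

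Neither of the transcription factors passed the adjusted test. Tcf7 was at 13.8 and 14.8 FPKM in DKO cells and 14.4 and 12.1 FPKM in control cells. The deposited table gives Tcf7 one common interval with 19 other genes. In all 11 of the 52 members share their interval with at least 1 other gene there, Axin2, Lgr5, Sfrp2 and Wnt11 among them, and the sources used here do not say how fragments were divided within such an interval. Lef1 was at 6.18 and 6.27 FPKM in DKO cells, above the control values of 5.75 and 4.57 FPKM (log2 difference 0.26, 95% interval -0.24 to 0.75, limma adjusted p = 0.673). The Lef1 difference was 0.41 without control replicate 1 and 0.11 without control replicate 2.

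The rest of the pathway was examined from whole lists of intracellular, secretion, further extracellular, non-canonical and target genes. Of 30 intracellular genes tested 0 passed the adjusted test, with 8 above and 4 below both controls, against 20.8% and 22.6% of all genes, and a median log2 difference of 0.0483. Ctnnb1, which encodes β-catenin, was listed at 408 and 433 FPKM in DKO cells and 415 and 427 FPKM in control cells. The factors Tcf7l1 and Tcf7l2 stood at 23.1 and 32.3 FPKM and at 17.3 and 17.4 FPKM in DKO cells, against 21.8 and 31.2 FPKM and 19.2 and 19.1 FPKM in control cells. Dvl1, a Dishevelled protein that relays the receptor signal, was at 19.3 and 20.1 FPKM in DKO cells and 26.2 and 23.2 FPKM in control cells (log2 difference -0.32, unadjusted p = 0.0431, limma adjusted p = 0.455).

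Of the 3 secretion genes 0 passed the limma test and 0 had an unadjusted p under 0.05, against 0.0212% and 10.7% of all genes. All 3 overlapped between the groups, as did 10701 of the 18884 genes tested. Porcn, which attaches the lipid, was at 4.12 and 3.17 FPKM in DKO cells and 2.82 and 3.73 FPKM in control cells. Wls, which carries Wnt proteins to the surface, was at 48.8 and 47.2 FPKM in DKO cells and 46.2 and 62.3 FPKM in control cells.

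Among 8 further extracellular genes Sostdc1, a secreted inhibitor of Wnt and BMP signals, had the widest separation. It was listed at 60.8 and 57.8 FPKM in DKO cells, against 92.8 and 110 FPKM in control cells (log2 difference -0.76, standard error 0.120, unadjusted p = 0.00155, limma adjusted p = 0.365). Tpbg, a membrane protein that restrains Wnt signaling, was at 18.5 and 19.6 FPKM in DKO cells and 14.5 and 13.8 FPKM in control cells (log2 difference 0.41, unadjusted p = 0.0165, limma adjusted p = 0.384). None of the 8 passed the adjusted test, and 3 were above and 2 below both controls, against 20.8% and 22.6% of all genes.

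Genes of the non-canonical branch and of planar cell polarity lay above both controls in 9 of 15 cases tested and below in 1, against 20.8% and 22.6% of all genes, and 0 passed the adjusted test. Ptk7, a co-receptor of planar cell polarity, was at 67.6 and 69.7 FPKM in DKO cells and 49.3 and 55.2 FPKM in control cells (log2 difference 0.39, unadjusted p = 0.0134, limma adjusted p = 0.384). Vangl1, of the core polarity complex, was at 7.30 and 7.18 FPKM in DKO cells and 4.43 and 5.53 FPKM in control cells (log2 difference 0.51, unadjusted p = 0.0432, limma adjusted p = 0.455).

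Of 19 genes listed as targets of β-catenin, which include members of the set, 9 lay above and 1 below both controls, against 20.8% and 22.6% of all genes, and 0 passed the adjusted test. Ccnd2, a cyclin of the G1 phase, was at 59.0 and 62.1 FPKM in DKO cells and 49.5 and 49.4 FPKM in control cells (log2 difference 0.29, unadjusted p = 0.0268, limma adjusted p = 0.408). The gene below was Cd44, a hyaluronan receptor that macrophages also express, at 3.73 and 4.20 FPKM in DKO cells and 9.63 and 6.38 FPKM in control cells (log2 difference -0.91, unadjusted p = 0.0152, limma adjusted p = 0.384). The macrophage markers were also lower in DKO cells, as given above, and their part in the Cd44 value was not tested.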

How the data were processed

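Poly(A)-selected, strand-specific RNA-Seq was made from 4 libraries of DBA-sorted E18.5 kidney cells. The authors mapped the reads to mm10 with Ensembl release 72, with TopHat 1.4.1 and Cuffdiff 2.2.1 listed in the submitters' notes on processing. The deposited FPKM values, 1 column per library, were used, and the authors' group means were not. Read totals and the scaling between libraries are not given in the sources used here. In the copy used, 2 lines were empty and were left out.

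Members were found by symbol. Genes with a larger group average above 0.1 FPKM entered a limma fit (version 3.58.1, under R 4.3.3) of log2(FPKM + 0.5), with variance trend (two-sided, Benjamini-Hochberg over all genes tested), and were called at an adjusted p under 0.05 and a 2-fold ratio of averages. The fold and adjusted p follow the study's methods, and its minimum FPKM was applied to the larger average. The limma test was not the study's own, which listed far more transcripts at its limits. The fitted difference understates changes of low genes. The fit was tested on simulated data. P-values set a difference against the spread between pools of embryos. Each gene's variance is drawn towards a trend over all genes, so its own spread alone is not what they measure. Depth was read from FPKM steps up to 0.3. Set members averaging at least 1 FPKM in a group were given with all values and the rest mostly by ranges (Wnt6, Wnt10a, Wnt2, Fzd9 and Lgr6 were picked out after their values were seen). Other pathway genes were named where they had an unadjusted p under 0.05, plus Ctnnb1, Tcf7l1, Tcf7l2, Porcn and Wls. Members and lists were chosen with earlier results of these data known. Figures used Python 3.11.15 and matplotlib 3.10.9. Alternatives were pseudocounts, filters, scalings, no variance trend, a replicate block and each library left out.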

Additional observations from a re-analysis of the deposited data

How the results depend on the processing

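No Wnt gene was called under any of the 12 alternatives, while the count over all genes, 4 as reported, was 0 without a filter, 2 without a variance trend, 16 with the replicate block and 0 with any 1 library left out. Replicate numbers were not shown to pair the samples (correlation of same-numbered deviations 0.105 over 18884 genes), and the block gave 0 calls among the Wnt genes. Rescaling to TPM took the median of all genes to 0.112 on the log2 scale, and the median of the Wnt genes to 0.22, while a minimum of 1 FPKM gave 0.13. On that scale differences near 0 turned positive, to 0.0022 for Wnt7b, 0.127 for Wnt4, 0.102 for Fzd1, 0.12 for Fzd6, 0.0559 for Fzd5, 0.116 for Lrp6 and 0.115 for Sfrp1, and median-ratio scaling gave 0.0141 for Wnt4, 0.0069 for Fzd6, 0.0011 for Lrp6 and 0.0012 for Sfrp1. Genes below both controls were 3 with TPM and 5 to 12 with 1 library left out. Among the 34 genes averaging 1 FPKM or more, 15 changed direction with 1 library left out, with ranges of -0.34 to 0.085 for Wnt7b, -0.12 to 0.12 for Wnt4, -0.18 to 0.46 for Wnt16, -0.0788 to 0.13 for Fzd7, -0.10 to 0.0428 for Fzd1, -0.0558 to 0.0354 for Fzd6, -0.18 to 0.0433 for Fzd5, -0.0424 to 0.0095 for Lrp6, -0.14 to 0.32 for Rspo1, -0.43 to 0.40 for Sfrp1, -0.12 to 0.66 for Dkk2, -0.0603 to 0.37 for Znrf3, -0.61 to 0.17 for Rnf43, -0.0076 to 0.0511 for Axin2 and -0.0137 to 0.24 for Tcf7. The filters, the fit without a variance trend and the block left each estimate unchanged. The other 19 kept their direction in all 12 alternatives. They were the 17 genes above and the 2 below both controls, so leaving out 1 library could not reverse their direction. Among these the size with 1 library left out ranged widely for Fzd10 (0.097 to 0.42), Fzd2 (0.19 to 0.44), Wif1 (0.10 to 0.52) and Wnt5b (0.0699 to 0.24). The added counts of genes above and below the controls were chosen after seeing the data.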
